A study of Mus musculus with 14 samples.

Results

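The Mef2 family comprises 4 mouse genes, Mef2a, Mef2b, Mef2c and Mef2d. Every peak of the 12 ChIP-seq peak lists whose gene name was one of these 4 was taken, and a gene without a peak was counted as not bound. The lists held 10303 peaks at 4384 named genes. Of these, 22 peaks were given to a Mef2 gene, and they fell into 11 regions after peaks overlapping by at least 1 bp were joined. Mef2a (ENSMUSG00000030557) and Mef2c (ENSMUSG00000005583) each received 11 peaks. Mef2b and Mef2d received none in any list.

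MEF2 proteins are MADS-box transcription factors that bind a short A/T-rich element in the control regions of muscle genes. They act together with the myogenic basic helix-loop-helix factors MyoD, Myf5, MyoG and Myf6, which bind E-boxes (CANNTG) as dimers with E proteins. Class IIa histone deacetylases hold MEF2 proteins inactive, and calcium-dependent and stress-activated kinases release them. Mef2a, Mef2c and Mef2d are the paralogs best known from skeletal muscle, whereas Mef2b is best known from lymphoid cells.

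The libraries came from muscle stem cells (MuSCs), the Pax7-expressing progenitors that repair muscle, of mice labelled as wild-type. In all groups the mice carried a mito-Dendra2 allele, a fluorescent mitochondrial protein, recombined by Pax7-CreERT2, so the sorted cells were MuSCs and their progeny. All mice received 75 mg/kg tamoxifen daily for 5 days. Quiescent cells (QSCs, CD34+ Dendra2+) were sorted from saline-injected tibialis anterior, a shin muscle, and activated cells (ASCs, CD34- Dendra2+) from the tibialis anterior of the other leg at 2 days after 50 µL of 1.2% BaCl2. The age and sex of the mice, and whether mice were pooled, were not given in the sources used here. CD34 state and injury cannot be told apart, because both separate ASCs from QSCs. Chromatin of each cell state was precipitated with a MyoD or a MyoG antibody, with 3 libraries in each of the 4 groups. A further 2 input libraries were not analysed here. Peak lists hold no expression values, so the identity of the sorted cells could not be checked against marker genes.

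The lists differed in length by group, from 2262 to 2652 peaks in ASC MyoD, 605 to 916 in ASC MyoG, 139 to 174 in QSC MyoD and 120 to 167 in QSC MyoG. Each peak carries a score, which is minus 10 times the log10 of its peak-calling p-value. No listed peak scored below 50.0. Scores rise with sequencing depth, which peak lists do not give. They were therefore compared within a list, and means over libraries describe the calls.

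The RefSeq promoter windows of 3 Mef2 genes are shown here because the results turn on their difference in MyoD peaks. Mef2a and Mef2c had a MyoD promoter peak in all 3 ASC libraries, and Mef2b had none although its window holds E-boxes. Each window runs from 250 bases before to 50 bases after an annotated start, in GRCm38.p6, the assembly of build mm10, and is written 5′ to 3′ on the gene's own strand. Capitals mark E-boxes (CANNTG, whose reverse complement has the same form) and the MEF2 site, searched on both strands. The Mef2a window is chr7:67372809-67373108 (minus strand), the Mef2c window chr13:83503784-83504083 (plus strand) and the Mef2b window chr8:70152511-70152810 (plus strand).
Mef2a: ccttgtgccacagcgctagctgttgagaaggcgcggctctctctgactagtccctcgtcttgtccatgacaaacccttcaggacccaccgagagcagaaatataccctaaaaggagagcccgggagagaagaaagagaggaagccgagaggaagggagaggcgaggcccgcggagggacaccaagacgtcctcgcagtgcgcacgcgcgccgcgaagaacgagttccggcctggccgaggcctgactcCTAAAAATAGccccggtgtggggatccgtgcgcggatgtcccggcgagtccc
Mef2c: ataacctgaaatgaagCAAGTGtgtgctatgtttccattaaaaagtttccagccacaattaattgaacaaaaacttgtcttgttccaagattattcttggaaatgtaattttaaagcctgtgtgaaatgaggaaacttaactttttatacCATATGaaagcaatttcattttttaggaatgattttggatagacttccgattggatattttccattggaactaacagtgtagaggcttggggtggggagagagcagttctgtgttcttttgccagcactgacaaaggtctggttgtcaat
Mef2b: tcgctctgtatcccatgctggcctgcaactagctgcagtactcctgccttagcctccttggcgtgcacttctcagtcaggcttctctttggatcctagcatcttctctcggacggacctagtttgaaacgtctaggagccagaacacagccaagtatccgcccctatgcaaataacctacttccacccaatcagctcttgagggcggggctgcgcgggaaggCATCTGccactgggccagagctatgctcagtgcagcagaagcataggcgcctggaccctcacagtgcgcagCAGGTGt

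The Mef2a window held no E-box and 1 MEF2 site, CTAAAAATAG, which spans the start itself at bases 249 to 258 of the window. None of the 3 ASC MyoD peaks reached this site. They began 83 to 137 bp upstream of the start and covered 114 to 168 bp of the window, and most of each peak lay farther upstream. The Mef2c window held 2 E-boxes and no MEF2 site. Its CATATG (bases 151 to 156) lay under the peak of all 3 ASC MyoD libraries, and its CAAGTG (bases 17 to 22) under the peaks of replicates 2 and 3. The Mef2b window held CATCTG and CAGGTG, and no listed peak covered either.

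Among 32851 RefSeq promoter windows, 72.3% held at least 1 CANNTG, 16.3% held CAGCTG, 20.2% held CAGGTG (each on either strand; both are forms of CANNTG) and 1.86% held the MEF2 site. Of the 168 windows overlapped by a MyoD region found in at least 2 ASC libraries, 151 (89.9%) held CANNTG, 85 (50.6%) held CAGCTG, 57 (33.9%) held CAGGTG and 15 (8.93%) held the MEF2 site. Neither of the 2 Mef2 windows under MyoD peaks held CAGCTG or CAGGTG. The windows cover only part of these peaks. For Mef2a they hold 114 to 168 bp of peaks 1041 to 1074 bp wide, and for Mef2c 205 to 300 bp of peaks 766 to 823 bp wide. The rest of the sequence under the promoter peaks was not searched. G and C made up 62.3% of the Mef2a window and 35.7% of the Mef2c window, on either side of the median of 57.8% for windows under MyoD regions. The Mef2d window had 72.0% G and C and none of these motifs. Mef2c has a further 2 RefSeq starts, and no listed peak overlapped their windows. A match is a description of these letters only, and the sequence of the distal regions was not analysed here.

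MyoD peaks at Mef2 genes were listed in ASCs and not in QSCs. The ASC MyoD libraries held 6, 7 and 7 Mef2 peaks in replicates 1, 2 and 3. Of these, Mef2a received 3, 3 and 4, and Mef2c received 3, 4 and 3. The QSC MyoD libraries held 0, 0 and 0. The groups did not overlap, and the same held for 23.3% of the 4384 genes given a peak. The QSC MyoD lists were also far shorter, with 139 to 174 peaks against 2262 to 2652 in ASC MyoD. The mean number of Mef2 peaks was 6.67 ± 0.577 (SD, n = 3) in ASCs and 0 in QSCs, a difference of 6.67 peaks per library (exact two-sided permutation p = 0.1, adjusted over 4 contrasts p = 0.2). The smallest p that 3 libraries against 3 allow is 0.1, so no such contrast could pass 0.05.

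MyoG peaks at Mef2 genes were single calls. ASC MyoG replicates 1, 2 and 3 held 0, 1 and 0 Mef2 peaks, the listed one in Mef2a. QSC MyoG replicates 1, 2 and 3 also held 0, 1 and 0, the listed one assigned to Mef2c. The ASC and QSC values of MyoG were the same, with a difference of 0 (exact permutation p = 1). Within ASCs, MyoD exceeded MyoG by 6.33 peaks per library (exact permutation p = 0.1, adjusted p = 0.2). The ASC MyoD lists were also longer, with 2262 to 2652 peaks against 605 to 916 in ASC MyoG. The share of all genes with more MyoD than MyoG peaks in every ASC library was not counted. Within QSCs, MyoD minus MyoG was -0.33 peaks (exact permutation p = 1). The ASC minus QSC difference in means was 6.67 peaks larger for MyoD than for MyoG. Its exact permutation p of 0.1 was taken over differences formed by replicate number, and those numbers were not shown to pair the libraries.

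**Figure D1:**
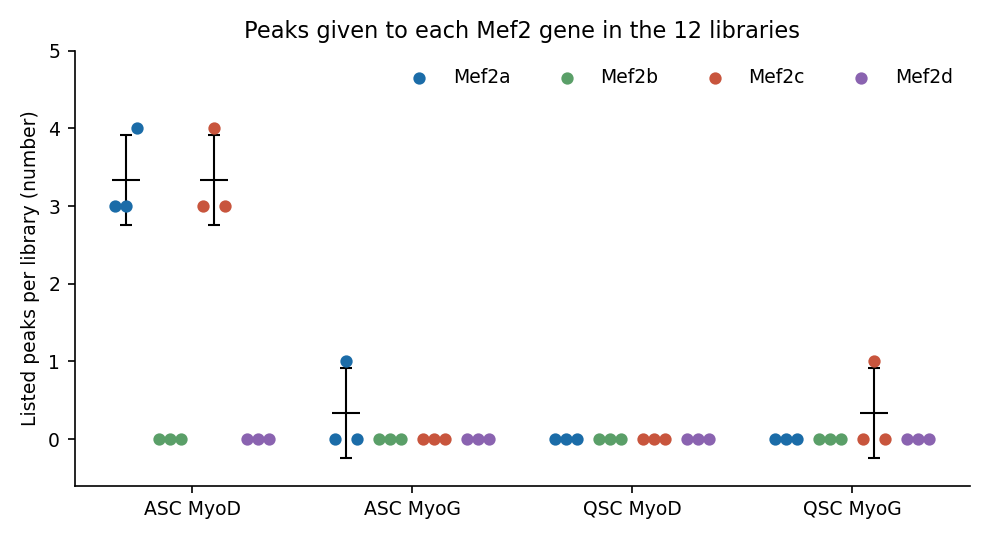
Number of listed peaks given to each Mef2 gene (y axis) in each library, by group (x axis); colored points are single libraries, the horizontal line is the mean and the bar the SD over 3 libraries, drawn where the values differ. Mef2a and Mef2c sit at 3 or 4 peaks in ASC MyoD and at 0 or 1 elsewhere, and Mef2b and Mef2d sit at 0 throughout.

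As a share of the list, Mef2 peaks made up 0.226%, 0.309% and 0.305% of the ASC MyoD lists (mean 0.280% ± 0.0468, SD, n = 3). They made up 0% of each QSC MyoD list. With 171, 139 and 174 peaks, those lists allow up to 2.13%, 2.62% and 2.10% (upper bounds of 95% exact Clopper-Pearson intervals, which cover counting error of peaks only). These bounds lie above the ASC shares, so a share in QSCs equal to that in ASCs was not detectable at these list lengths. The ASC MyoG shares were 0%, 0.165% and 0%, with upper bounds of 0.402%, 0.917% and 0.576%, and each of these intervals also held the mean ASC MyoD share. The single QSC MyoG peak was 0.617% of its list. The difference in share was 0.280 percentage points for MyoD between ASCs and QSCs (exact permutation p = 0.1, adjusted p = 0.2). It was 0.225 points between MyoD and MyoG in ASCs (exact permutation p = 0.1, adjusted p = 0.2), but only 0.0443 points with distal intergenic peaks left out (exact permutation p = 0.8).

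A region was called ASC-specific for an antibody when at least 2 of 3 ASC libraries held a peak in it and no QSC library of that antibody did. Mef2a and Mef2c had such a MyoD region, as did 36.7% of the 4384 genes given any peak (1610 genes) and 3.05% of RefSeq genes. Each of them had 3, and 3 or more were found for 1.39% of the genes given a peak (61 genes). Most genes with such a region had 1 (1334 genes). With peaks limited to a score of at least 80, Mef2a had 3 regions and Mef2c had 1, and 757 genes had at least 1. The genes with 3 or more at this limit were not counted. A higher peak number in every ASC than in every QSC MyoD library was found for Mef2a and Mef2c and for 23.3% of genes given a peak. No Mef2 gene had an ASC-specific MyoG region, against 2.05% of genes given a peak. None had a QSC-specific MyoD region, against 0.502%. Mef2b and Mef2d had no region of any kind.

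The MyoD regions of Mef2a (chr7, minus strand, 67231163-67376456) lay at and upstream of its start. The promoter region, chr7:67372941-67374051, was centered 0.63 kb upstream of the RefSeq start. It scored 117.77, 111.25 and 90.88 in ASC MyoD replicates 1, 2 and 3, a mean of 107 ± 14.0 (SD, n = 3). These scores were above the list medians of 75.1, 72.1 and 68.9. The RefSeq span of the gene reaches past this start, to position 67376456, so the promoter region lies inside it.

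The highest scores of the family came from an intergenic region, chr7:67384763-67386253, centered 12.6 kb upstream of the Mef2a start. It scored 289.40, 275.67 and 209.12, a mean of 258 ± 42.9 (SD, n = 3). Within their own lists these peaks ranked 65 of 2652, 38 of 2262 and 85 of 2296. The middles of the 3 calls lay within 227 bp of each other, so the libraries placed the peak at the same site to within the sheared fragment length of about 500 bp. The mean percentile of the region within the 3 lists was 97.4. In each library it was the highest-scoring Mef2a peak, ahead of the promoter peak.

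The other intergenic Mef2a region, chr7:67414527-67415418, was centered 42.1 kb upstream and scored 100.99, 87.32 and 86.23, a mean of 91.5 ± 8.23 (SD, n = 3). No other RefSeq gene lies between these upstream regions and Mef2a. Inside the gene, 1 MyoD peak was called in ASC MyoD replicate 3 only, in intron 7 of 11 (chr7:67259039-67259679, score 50.74). The single MyoG peak of Mef2a, from ASC MyoG replicate 2, was in intron 8 (chr7:67250978-67251519, score 51.66). It lay 7.52 kb from the intron 7 MyoD peak and overlapped no MyoD peak.

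A further 2 regions stood in all 3 ASC MyoD lists upstream of Mef2a but were given to Lrrc28, the neighboring protein-coding gene of leucine-rich repeats. The nearer, chr7:67444268-67445256, lay 71.9 kb from the Mef2a start and 200.5 kb from the RefSeq start of Lrrc28. It lay about equally far from the spans of both genes, 67.8 kb from Mef2a and 68.2 kb from Lrrc28. It scored 103.37, 105.29 and 95.46. The farther, chr7:67465852-67466996, lay 93.6 kb from the Mef2a start and 179 kb from that of Lrrc28, but nearer to the span of Lrrc28 (46.4 kb) than to that of Mef2a (89.4 kb). It scored 167.09, 215.24 and 91.64. Counted by position, within 100 kb of a start whatever gene the list names, Mef2a thus had 5 regions in the ASC MyoD libraries in place of 3. Which gene any of these regions acts on was not tested.

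The MyoD regions of Mef2c (chr13, plus strand, 83504017-83667079) were one at the start and others far upstream. The promoter region, chr13:83503660-83504689, was centered 0.142 kb downstream of the first RefSeq start. It scored 129.84, 126.49 and 79.53 in ASC MyoD replicates 1, 2 and 3, a mean of 112 ± 28.1 (SD, n = 3). Its upstream edge also overlaps Gm33317, a long noncoding RNA gene. This was the highest-scoring Mef2c peak in each of the 3 libraries.

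The far upstream Mef2c regions were weaker calls. That at chr13:83207208-83208238, 296 kb upstream, scored 65.08, 78.17 and 73.18, a mean of 72.1 ± 6.61 (SD, n = 3), near the list medians. That at chr13:83076450-83077202, 427 kb upstream, was found in replicates 1 and 2 only, with scores of 67.34 and 51.17, and overlaps the long noncoding RNA gene Gm33073. Between both of them and Mef2c, RefSeq lists 3 genes, the long noncoding RNA genes Gm33217, Gm33274 and Gm33317, and 0 protein-coding genes.

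The remaining Mef2c peaks were each found in 1 library. ASC MyoD replicate 3 had a peak 118 kb upstream (chr13:83386131-83386653, score 54.26). ASC MyoD replicate 2 had a peak in intron 4 of 10, 100.4 kb downstream of the first start (chr13:83604106-83604760, score 55.04). QSC MyoG replicate 2 had a peak 164 kb upstream (chr13:83339826-83340253, score 58.51), which overlapped no peak of another library and lies in Gm33217. The ASC MyoD single calls, these 2 and the 1 in Mef2a, scored 55.04 or less. They were at percentiles 17.4, 17.1 and 3.48 of their lists. The 5 regions found in all 3 ASC MyoD libraries scored 65.08 or more in each. The MyoG single calls belong to other lists. That of Mef2a was at percentile 15.4 of its list, and that of Mef2c, in QSCs, at percentile 74.4 of its short list.

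**Figure D2:**
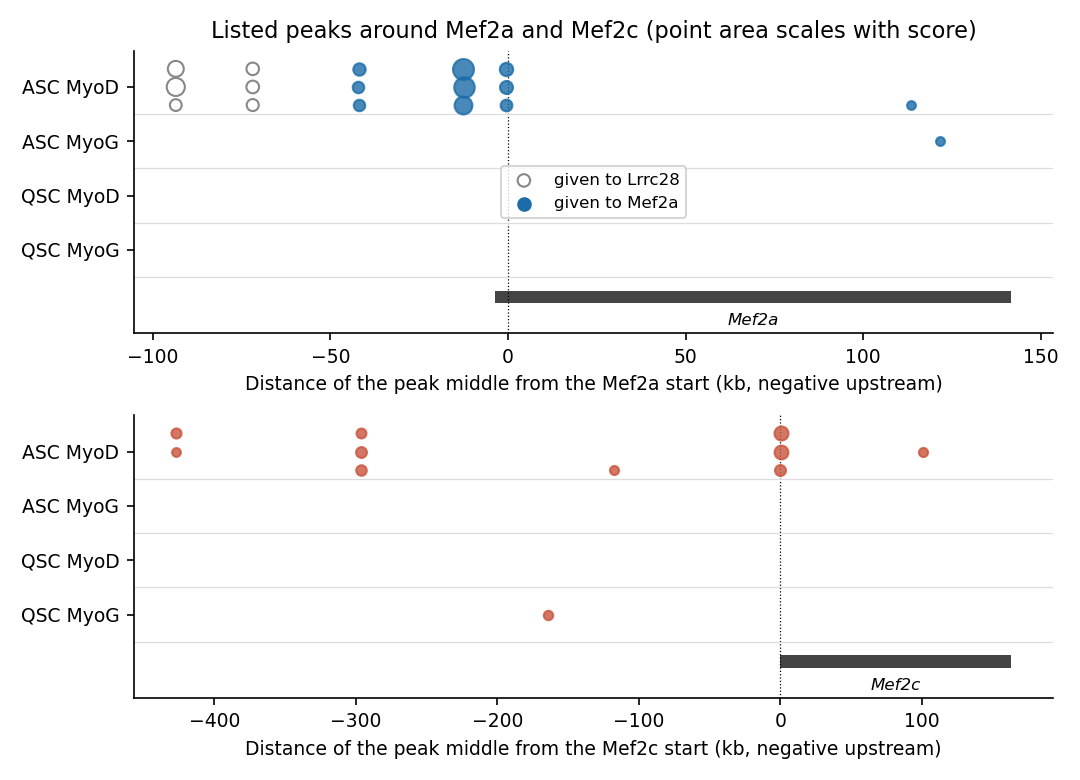
Middle of each listed peak as its distance from the first RefSeq start in kb (x axis, negative upstream, a different scale in each panel) for Mef2a (top) and Mef2c (bottom); within each group on the y axis, replicates 1 to 3 run from top to bottom, point area scales with the score, open circles are peaks given to Lrrc28 and the dark bar is the RefSeq gene. Mef2a peaks of the ASC MyoD libraries line up at the start and 12.6 and 42.1 kb upstream, and Mef2c peaks at the start and 296 kb upstream.

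By the gene names of the lists, Mef2a and Mef2c had equal peak totals in the ASC MyoD libraries. Their highest scores lay in different gene parts, intergenic in Mef2a and promoter in Mef2c. By these names, Mef2a minus Mef2c was 0, -1 and 1 peaks in ASC MyoD replicates 1, 2 and 3 (mean 0, exact sign-flip permutation p = 1). The equality depends on the names. Counted by position within 100 kb of a start, Mef2a had 5 regions in at least 2 ASC MyoD libraries and Mef2c had 1. The highest Mef2a score exceeded the highest Mef2c score in 3 of 3 libraries, by 159.56, 149.18 and 129.59, a mean of 146 ± 15.2 (SD, n = 3, exact sign-flip permutation p = 0.25, the smallest that 3 libraries allow). At the promoters alone, Mef2a minus Mef2c was -12.07, -15.24 and 11.35, a mean of -5.32 ± 14.5 (SD, n = 3, exact sign-flip permutation p = 0.5). The promoter scores thus differed by less than the spread between libraries, and the direction of the difference in the highest score rests on the region 12.6 kb upstream of Mef2a.

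Apart from the promoters, the highest Mef2a score exceeded the highest Mef2c score by 222.06, 197.50 and 135.94 in the same libraries (mean 185 ± 44.4, SD, n = 3, exact sign-flip permutation p = 0.25). Ranked within their own lists, the Mef2a promoter region and those 12.6 and 42.1 kb upstream had mean percentiles of 76.9, 97.4 and 68.9. The Mef2c promoter region and those 296 and 427 kb upstream had mean percentiles of 77.0, 49.4 and 21.1, the last over 2 libraries. Both Mef2 promoter peaks lay above the median score of promoter peaks in each of the 3 lists (75.8, 72.4 and 69.9). Of the 1610 genes with an ASC-specific MyoD region, 29 had one at a promoter and another in distal intergenic sequence, Mef2a and Mef2c among them. The 1334 genes with exactly 1 region could not meet this rule.

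**Figure D3:**
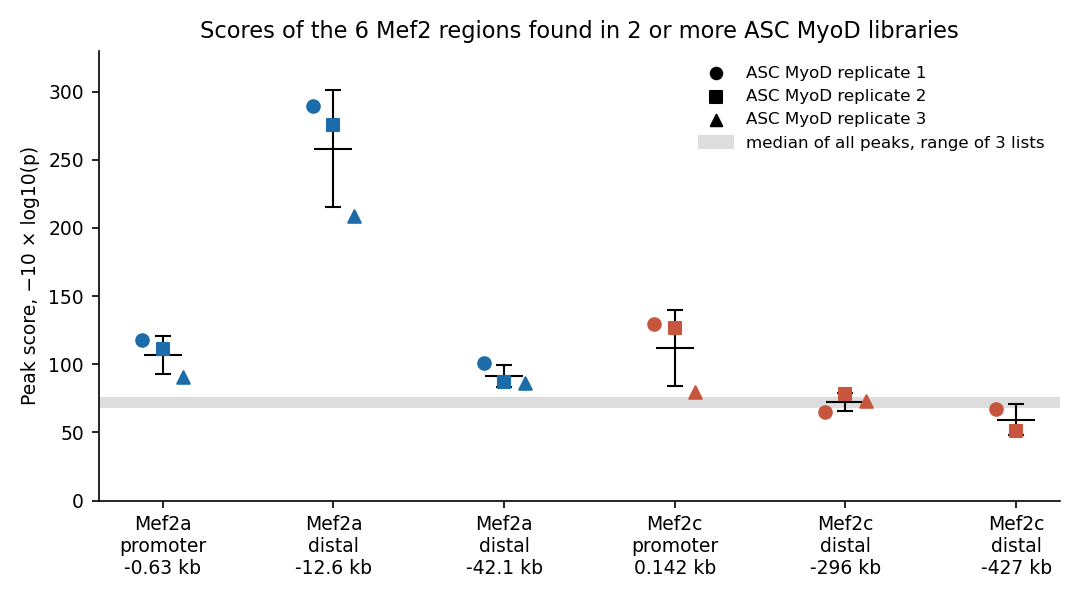
Peak score on the scale of the lists (y axis) in each ASC MyoD library for the 6 Mef2 regions with a peak in at least 2 of these libraries (x axis, named by gene, gene part and distance from the start in kb); symbols are libraries, the horizontal line is the mean and the bar the SD, and the gray band spans the 3 list medians. The region 12.6 kb upstream of Mef2a is at 209.12 or more in each library, and all other values are 129.84 or less.

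Mef2b and Mef2d, the paralogs without a peak, were also far from peaks of other genes. The peak nearest to Mef2b (chr8, plus strand, 70152761-70167488) lay 79.0 kb away and was given to Sugp2, a gene of a splicing-factor-like protein. It scored 65.76 and 91.04 in ASC MyoD replicates 2 and 3. The lists label it promoter, but it lay inside the RefSeq span of Sugp2, 12.7 kb from the RefSeq start of that gene. The peak nearest to Mef2d (chr3, plus strand, 88141941-88172091) lay 324 kb away and was given to Lmna, the lamin A/C gene, with a score of 114.29 in ASC MyoD replicate 1. No peak of any of the 12 lists lay within 100 kb of the Mef2d start. A gene with no listed peak may still be bound below the score limit of the lists.

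Genes of the MEF2 pathway were then examined from a list of 49 genes. An ASC-specific MyoD region was found for 14 of them (28.6%), with 18 regions in all, against 36.7% of genes given a peak. The list includes genes with no peak, which the 36.7% leaves out, and 3.05% of all RefSeq genes had such a region. By part of the list, the share was 57.1% for MyoD relatives and E proteins and 50% for class IIa histone deacetylases. It was 11.1% for coactivators and corepressors, 25% for calcium and kinase signaling genes and 23.5% for muscle genes known as MEF2 targets. The median number of such regions per list gene was 0, and over the 4 Mef2 genes it was 1.5.

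Among the MyoD relatives and E proteins, 4 of 7 genes had a region. Tcf12, which encodes the E protein HEB, a dimer partner of MyoD, had an intronic region at a mean score of 398 ± 82.7 (SD, n = 3). Myod1 itself had 3 regions, the highest a distal one at 162 ± 74.5 (SD, n = 3). Tcf4, another E protein gene, had 2, the higher at 108 ± 5.30 (SD, n = 3), and Myog had a promoter region in 2 libraries at 52.5 ± 2.47 (SD, n = 2). Myf5, Myf6 and the E protein gene Tcf3 had none.

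Of the class IIa histone deacetylases, which repress MEF2 proteins, Hdac4 had an intronic region at 142 ± 35.6 (SD, n = 3) and Hdac7 a promoter region at 74.6 ± 8.12 (SD, n = 2). Hdac5 and Hdac9 had none. Of 9 coactivators and corepressors, only Kat2b, the acetyltransferase PCAF, had a region, at 59.9 ± 10.1 (SD, n = 2). Among 12 calcium and kinase signaling genes, 3 genes of calcium/calmodulin-dependent kinase II had a region, Camk2b at 106 ± 22.9 (SD, n = 3), Camk2g at 90.7 ± 31.6 (SD, n = 3) and Camk2a at 55.1 ± 1.43 (SD, n = 2). The calcineurin subunit genes Ppp3ca, Ppp3cb and Ppp3r1 had no such region, although Ppp3ca was given a peak in 1 ASC MyoD library.

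Of 17 muscle genes known as MEF2 targets, 4 had an ASC-specific MyoD region. Actn2, the Z-disc protein alpha-actinin 2, had an intronic one at 148 ± 39.4 (SD, n = 3). Mb, myoglobin, had one at 112 ± 65.3 (SD, n = 2). Des, the intermediate filament desmin, had 2 regions, the higher at 97.4 ± 18.8 (SD, n = 2), and Smyd1, a muscle methyltransferase, had a promoter region at 67.5 ± 2.57 (SD, n = 2). The other 13 target genes, Ckm among them, had no such region, although Myom2, Nr4a1, Lmod3 and Ppargc1a each had a peak in 1 ASC MyoD library.

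The Mef2 genes can be set beside other muscle transcription factor families by the same count. ASC-specific MyoD regions were found for 2 of 4 Mef2 genes (6 regions) and 2 of 4 myogenic regulatory factor genes (4 regions, Myod1 and Myog). They were found for 3 of 7 Runx and Tead genes (8 regions) and 1 of 12 genes of the Pax, sine oculis homeobox and Eya families (1 region, Eya2). Tead1, which encodes a factor of the Hippo pathway, had the most, with 5, the highest at 255 ± 29.9 (SD, n = 3). Runx1 had 2 (the higher at 90.4 ± 2.43, SD, n = 2) and Runx2 had 1 (178 ± 36.6, SD, n = 3). In Eya2 the region scored 62.8 ± 19.4 (SD, n = 3). Over all genes the share with such a region was 36.7% of genes given a peak and 3.05% of RefSeq genes. A gene counted as without a region can still hold peaks, as Tead4 did, with peaks in 3 ASC MyoD libraries and 1 QSC peak but no ASC-specific region. No test of a difference between families was made.

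**Figure D4:**
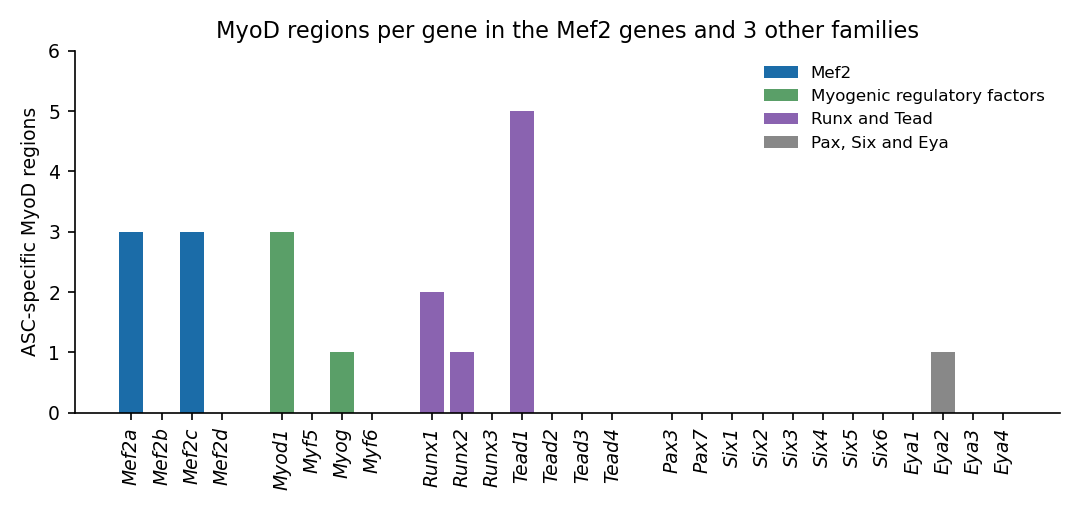
Number of ASC-specific MyoD regions (y axis) of each gene (x axis) in the Mef2 genes and 3 other families, shown by color. Mef2a, Mef2c and Myod1 each have 3, Tead1 has 5, and most other genes have 0.

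Likeness of pattern was measured as the sum, over the 12 libraries, of the absolute difference in number of peaks. Nearest to Mef2a, each at a distance of 2 and with 10 genes at that distance, were Mir206, Myod1, Tbc1d1, Plet1 and Bcar3, ordered by how close the mean score of their ASC MyoD peaks was to that of Mef2a. Mir206 is the gene of a muscle microRNA, and Tbc1d1 encodes a Rab GTPase-activating protein. Mir206 had 3 peaks in each ASC MyoD library, a mean ASC MyoD score of 139 against 142 for Mef2a, and none elsewhere. Nearest to Mef2c was Arhgap24, at a distance of 1, with 3, 4 and 3 peaks in the ASC MyoD libraries as in Mef2c. It differed only by the QSC MyoG peak of Mef2c. Ccnd3 (cyclin D3), Tprg, Dip2c and Igsf3 followed at a distance of 2, which 13 genes shared.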

How the data were processed

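MyoD and MyoG ChIP-seq peak lists of 12 libraries from sorted mouse MuSCs were used as deposited, 1 list per library. Per the submitters' processing notes, BWA 0.7.5, MACS and deepTools 3.5.0 were used with build mm10. The MACS version, the annotation tool, whether the inputs served as background and how peaks were filtered are not given in the sources used here. The authors' score of a peak is minus 10 times the log10 of its p-value, and the deposited positions, gene names and gene parts were used as given. Lists hold no read counts, so depth is unknown. Libraries were grouped by their titles. The study describes the replicates of each data set as biological. Whether each came from separate mice is not given in the sources used here, and p-values measure the spread between these libraries.

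Peaks of all lists that overlapped by at least 1 bp and were given to the same gene formed a region. Numbers and shares of peaks were compared by exact permutation tests over libraries with Benjamini-Hochberg adjustment over 4 contrasts, and scores by exact sign-flip tests within libraries. The computation of ASC-specific regions was checked on simulated lists with well-separated planted regions. That check does not measure how well the rule works on the short, unequal lists used here. Of 4384 gene names, 4099 matched a RefSeq symbol, as did all 4 Mef2 genes, and 4 peaks had no gene name. Promoter sequences are from RefSeq (GRCm38.p6). A planned motif search in distal regions needed a genome and was not run. Members and lists were chosen with earlier results of these data known, and the study itself displays MyoD binding at Mef2a. Named genes were the 4 members, the list and family genes with an ASC-specific region, and the 5 nearest in pattern for each bound member, since they tied in peaks. Genes named as without a region, and the neighbors Lrrc28, Sugp2 and Lmna, were named after their values were seen. Alternatives were a score of at least 80, distal peaks left out, overlapping peaks merged, 50% overlap, gaps up to 500 bp, 1 or 3 libraries, percentile ranks, a replicate block, and each replicate left out. Python 3.11.15, pandas 2.3.3, NumPy 2.4.6, SciPy 1.17.1 and matplotlib 3.10.9 were used.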

Additional observations from a re-analysis of the deposited data

How the results depend on the processing

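Alternatives were run for 10 of the tested results, 74 in all, of which 2 changed sign, and none gave a p below 0.05, which no design here could reach. With distal intergenic peaks left out, the highest Mef2a score minus the highest Mef2c score in ASC MyoD libraries was -5.32 (main value 146, exact sign-flip permutation p = 0.5), since only promoter and intron peaks remained, and the ASC minus QSC share of MyoG peaks lying at Mef2 genes was 0.132 percentage points (main value -0.151, exact permutation p = 1). Under the same alternative, the share of peaks at Mef2 genes in ASCs was 0.0443 points higher for MyoD than for MyoG (main value 0.225, exact permutation p = 0.8). The ASC minus QSC number of MyoD peaks was 3.67 at a score of at least 80, 2.67 without distal peaks and between 6.5 and 7 with a replicate left out.

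Mef2a regions in ASC MyoD (3) fell to 1 without distal peaks and numbered 5 by position within 100 kb, an alternative chosen after seeing the data. By position, Mef2b had 1 (the Sugp2 region) in place of 0 and Mef2c 1. Mef2c regions (3) numbered 1 at a score of at least 80, 5 with a peak in at least 1 library and 1 without distal peaks. Genes with an ASC-specific MyoD region (1610) numbered 757 at a score of at least 80, 957 with all 3 libraries required, 2952 with 1 library and 1062 without distal peaks.

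With the replicate number as a block, the mean differences are the same by arithmetic, 6.67 peaks for MyoD ASC minus QSC (exact sign-flip permutation p = 0.25, the smallest possible). With or without the replicate block no p could pass 0.05, so it bears on no call. Deviations in list length of same-numbered libraries correlated from -0.986 to 0.999 over the 6 pairs of groups, so the numbers were not taken to pair the samples. Depth is unknown, so a missing peak in the short QSC lists does not show that MyoD was absent.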
